A study of Mus musculus with 2 samples.

Results

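Genes of the early secretory pathway were compared between cells of healing mouse skin labelled by B-Gal status. They comprise 45 genes, listed by function, that encode the machinery carrying new proteins into the endoplasmic reticulum, folding them there and moving them on to the Golgi. Of these, 44 had a probe set naming that gene alone, out of 19938 such genes on the array. Kdelr2 was the exception and has no value here. Where a gene had several such probe sets, the brightest over both arrays was taken.

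The cells came from the scar tissue of TCF reporter mice 1 week after wounding. Both groups share this genotype, tissue and time, and they differ in the B-Gal label, positive or negative, taken here to mean beta-galactosidase made by a reporter of TCF transcription factor activity. Each group had 1 array of total RNA, and the labels state neither the number, strain and age of the mice nor how the cells were separated. With 1 array a group there is no replicate error and no test, so the comparisons describe these arrays. No value here checks the B-Gal label against the reporter, and the design text describes RNA from homogenised wound tissue, which leaves its relation to separate cell groups unstated. Values are read as log2, a scale inferred from their range, and a difference is the value in B-Gal positive minus that in B-Gal negative cells.

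A protein bound for secretion is threaded into the endoplasmic reticulum through the SEC61 channel, loses its signal peptide to signal peptidase and receives sugar chains from the oligosaccharyltransferase. Chaperones and disulfide isomerases then fold it, and escaped chaperones are brought back from the Golgi by KDEL receptors. Finished cargo leaves in vesicles with a COPII coat, while vesicles with a COPI coat return. Fibroblasts that lay down collagen are known to use this route heavily, and collagen needs dedicated factors to leave the reticulum because of its size.

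The arrays also differed in the markers of many cell types. In B-Gal positive cells all 12 macrophage markers were higher by 2-fold or more (median difference 4.11), and all 12 fibroblast markers lower (median -3.57). The mean log2 value of the macrophage list was 7.83 in B-Gal negative and 11.96 in B-Gal positive cells, and that of the fibroblast list 12.49 and 9.11. Lower by at least 2-fold were 7 of 8 endothelial, 5 of 6 mural cell, all 6 mast cell and 4 of 6 neutrophil markers. Most keratinocyte markers lay near the floor, the 95th percentile of 1194 olfactory and vomeronasal receptor genes (5.59). All 5 that exceeded it in at least 1 array had a lower value. By at least 2-fold 2 were lower, Krt5 (7.11 in B-Gal negative and 5.48 in B-Gal positive cells) and Krt14 (7.06 and 5.94). The remaining neutrophil markers had higher values, Csf3r by 0.49 and Mmp8 by 1.23, the latter from under the floor. Plasma cells also have a large secretory machinery. Of their 9 measured markers, Xbp1 among them, 7 exceeded the floor. Of these 7, 2 had a lower value and 5 a higher one (median difference 0.52). By at least 2-fold, 1 was lower and 1 higher. The antibody joining chain gene Jchain lay under the floor in both arrays. The part of these cell types in the differences below was not tested, and fewer cells of a type cannot be told apart from less RNA per cell.

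Most of the secretory pathway genes were lower on the B-Gal positive array. The value was lower for 38 of the 44 and higher for 6, and the median difference was -0.92. By at least 2-fold, 19 genes (43.2%) were lower and 1 (2.27%) was higher. The genes were chosen with earlier results of these data known, so this share may depend on that choice. Among the 13784 genes of the array above the floor in at least 1 array, 12.7% were at least 2-fold lower and 9.92% higher, and the median difference was 0.06. A lower value was found in 45.5% of them, beside 86.4% of the 44. All 44 lay above the floor in both arrays, the lowest value being 6.43.

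Most of these genes had high values, and genes with high values leaned the other way on the array. Of 5011 genes with a mean log2 value of at least 8, 10.4% were lower by 2-fold or more and 16.3% higher, around a median difference of 0.11. Of the 43 secretory pathway genes above that level, 18 (41.9%) were lower and 1 higher, with a median of -0.89. At least 4-fold lower were 7 of the 44, namely Kdelr3, Creb3l1, Pdia5, Sec23a, Sec24d, Creb3l2 and Sec31a, and 0 were higher by as much. With an offset of 32 on linear values, also tried at 4-fold after seeing the data, Creb3l2 (-1.79) and Sec31a (-1.98) fell short of 4-fold, which left 5. Of the expressed genes, 5.72% were 4-fold lower and 3.01% higher.

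**Figure D1:**
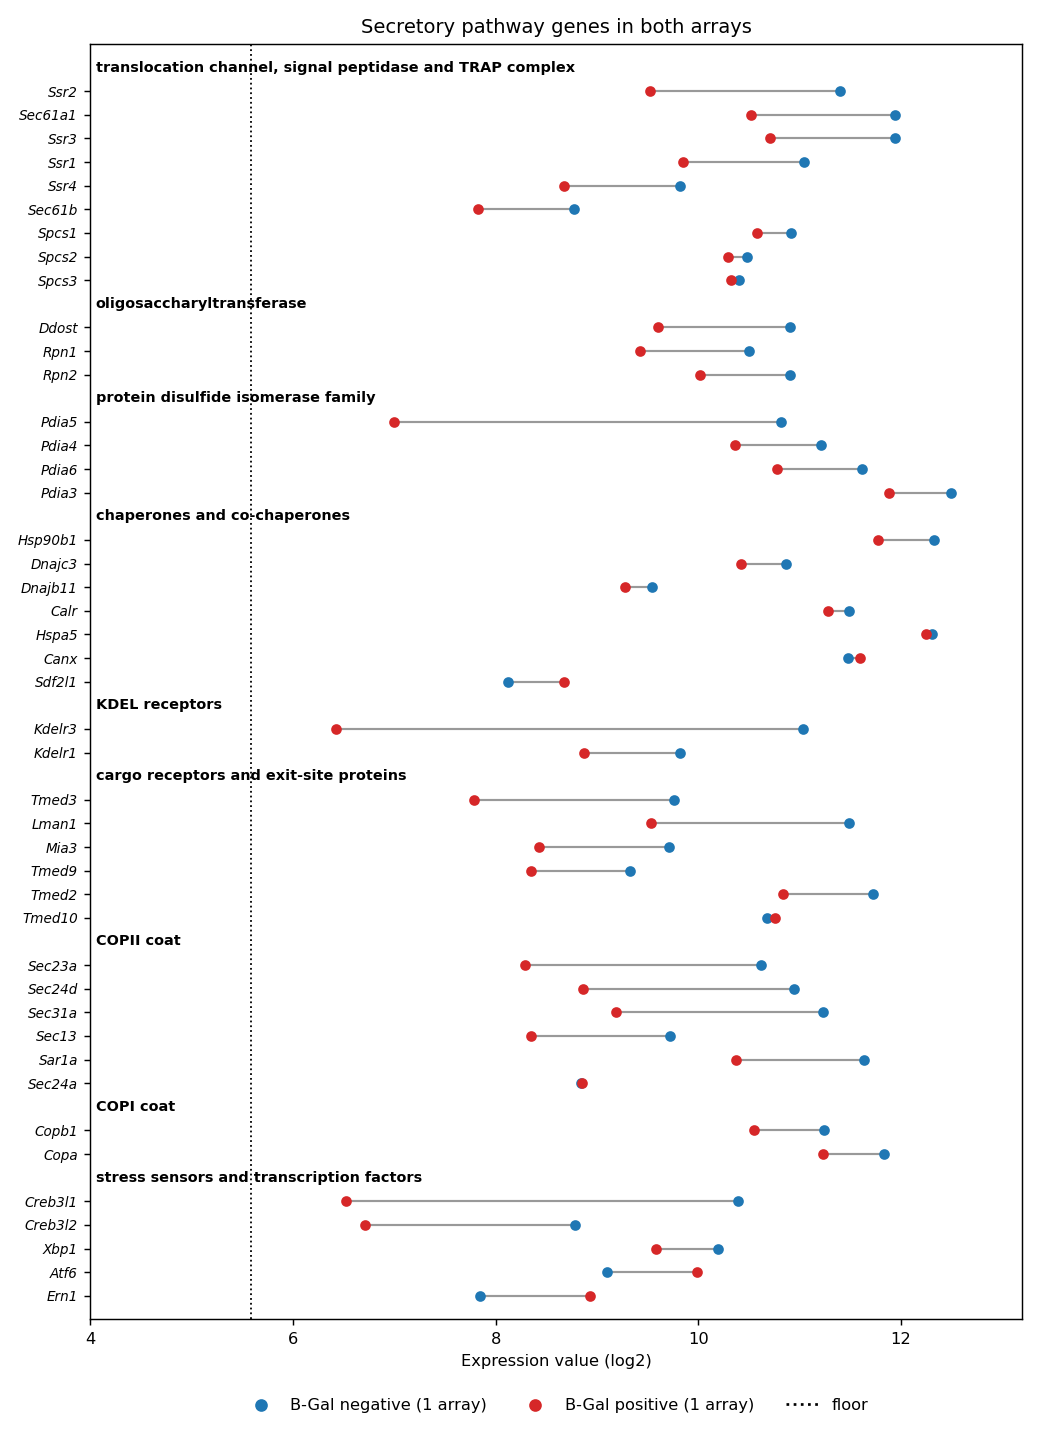
Log2 expression value of each of the 44 measured genes in the B-Gal negative array (blue) and the B-Gal positive array (red), grouped by role and ordered by difference, with the floor of 5.59 as a dotted line. Chaperones lie close together in both arrays, while Kdelr3, Pdia5, Creb3l1 and most COPII genes lie far apart.

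**Figure D2:**
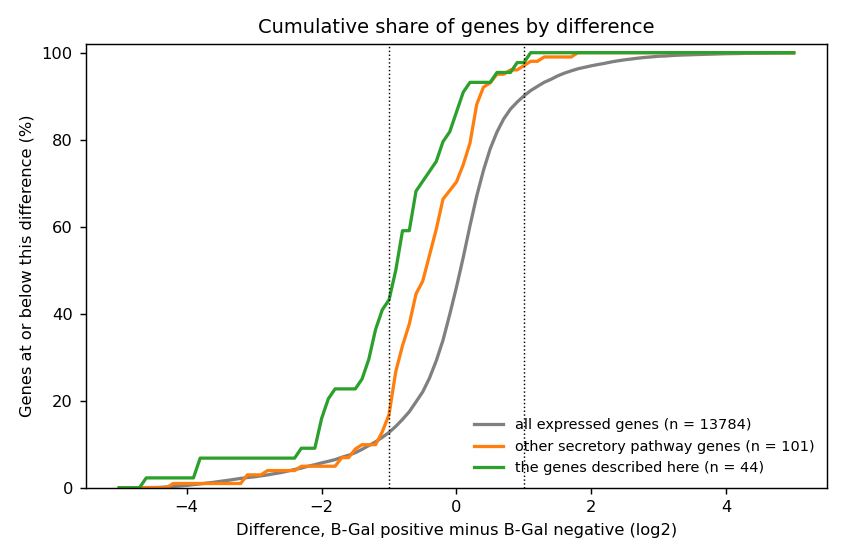
Cumulative share of genes (percent) by their log2 difference, B-Gal positive minus B-Gal negative, for the 44 genes (green), 101 other secretory pathway genes above the floor (orange) and 13784 expressed genes (grey). Dotted lines mark 2-fold, and at the left one the curves stand at 43.2%, 16.8% and 12.7%. The green and orange sets were chosen with earlier results of these data known.

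At the entry to the endoplasmic reticulum the genes differed by complex. All 9 translocation, signal peptidase and TRAP genes were lower in value on the B-Gal positive array, and 5 passed 2-fold, with a median difference of -1.14. Sec61a1, which encodes the pore of the channel, had log2 values of 11.94 in B-Gal negative and 10.52 in B-Gal positive cells and was 2.67-fold lower. Sec61b, a small subunit of the channel, had values of 8.77 and 7.83, 1.92-fold lower. Its other probe sets differed by -1.18 and -1.19, so the subunit passed 2-fold on those and not on the brightest one.

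The TRAP complex, which assists the channel with some signal sequences, was lower in all of its 4 subunits. Ssr2 had the largest difference of the entry machinery, from 11.40 in B-Gal negative to 9.52 in B-Gal positive cells (3.69-fold). Ssr1, Ssr3 and Ssr4 were 2.29-fold, 2.35-fold and 2.21-fold lower. The signal peptidase subunits differed less. Spcs1 had values of 10.92 and 10.58, Spcs2 of 10.48 and 10.29, and Spcs3 of 10.40 and 10.32. These are accessory subunits. The catalytic subunits, in the wider list, went apart, with Sec11a at -0.65 and Sec11c at 1.24.

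Oligosaccharyltransferase subunits were lower in all 3 cases. Ddost had values of 10.91 in B-Gal negative and 9.60 in B-Gal positive cells (2.48-fold lower), Rpn1 of 10.50 and 9.42 (2.11-fold lower) and Rpn2 of 10.90 and 10.01 (1.85-fold lower).

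Among the 4 disulfide isomerases of the 44 genes, 1 stood far from the others. Pdia5 had a log2 value of 10.81 in B-Gal negative and 7.00 in B-Gal positive cells, 14.1-fold lower. Txndc5, a disulfide isomerase of the wider list, was 5.06-fold lower. Pdia3, the partner of calnexin and calreticulin in folding glycoproteins, had values of 12.49 and 11.88 (1.53-fold lower). Pdia4 (11.21 and 10.36) and Pdia6 (11.62 and 10.78) were 1.81-fold and 1.79-fold lower. A second probe set of Pdia4 lay near the floor in both arrays, at 5.52 and 5.75, and averaging both probe sets gave a difference of -0.31 in place of -0.85.

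The chaperones and co-chaperones had the median difference closest to 0 of the 9 roles, at -0.21. None of the 7 differed by 2-fold, and they ranged from -0.55 to 0.55. Hspa5, which encodes BiP, the main HSP70 of the endoplasmic reticulum and a standard readout of its stress response, had values of 12.31 in B-Gal negative and 12.24 in B-Gal positive cells. Hsp90b1, the HSP90 of the compartment, had values of 12.32 and 11.77.

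The lectin chaperones that hold glycoproteins were also close between the arrays. Calr, encoding calreticulin, had values of 11.49 and 11.28, and Canx, encoding calnexin, of 11.48 and 11.60. The BiP co-chaperones Dnajb11 (9.55 and 9.27) and Dnajc3 (10.86 and 10.42) were slightly lower in value. Sdf2l1, which works with DNAJB11, went the other way, with values of 8.13 and 8.68, 1.47-fold higher.

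Promoters of these chaperones are known for the endoplasmic reticulum stress element, ERSE, through which ATF6 and XBP1 act. The promoter table (RefSeq, assembly GRCm38.p6, 250 bases before to 50 after the gene start) holds 37 of the 45 genes. The letters CCAAT, 9 bases of any kind and CCACG, on either strand, were found in 6 of the 37. They were found in 0.137% of all 27025 genes of that table. The 6 were Hspa5, Hsp90b1, Calr, Canx, Dnajc3 and Pdia6. A related form, ERSE-II, which reads ATTGG, 1 base of any kind and CCACG, was found in Dnajb11 and in 0.0444% of all genes. The stretches around these matches are shown because the genes that hold them include most of the chaperones, with the matched letters in capitals and each read 5′ to 3′ along its gene's strand. They lie at chr2:34772005-34772063 (plus strand), chr11:50325780-50325838 (minus strand), chr8:84847055-84847113 (minus strand), chr14:118937807-118937865 (plus strand), chr12:17266471-17266529 (plus strand), chr10:86705513-86705676 (minus strand) and chr16:22857843-22857871 (plus strand). In Calr and at the second match of Hsp90b1 the motif lies on the opposite strand, and that of Dnajb11 lies after the gene start.
Hspa5: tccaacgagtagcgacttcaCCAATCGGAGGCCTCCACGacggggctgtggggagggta
Canx: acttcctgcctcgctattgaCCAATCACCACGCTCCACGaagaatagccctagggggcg
Calr: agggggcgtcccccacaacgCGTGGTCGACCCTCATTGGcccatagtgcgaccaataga
Dnajc3: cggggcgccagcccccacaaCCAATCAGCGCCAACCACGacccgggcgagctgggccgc
Pdia6: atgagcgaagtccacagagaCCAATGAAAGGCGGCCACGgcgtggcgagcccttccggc
Hsp90b1: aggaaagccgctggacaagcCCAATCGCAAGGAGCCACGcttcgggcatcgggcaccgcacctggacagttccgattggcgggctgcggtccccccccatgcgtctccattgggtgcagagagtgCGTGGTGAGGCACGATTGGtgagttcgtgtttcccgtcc
Dnajb11: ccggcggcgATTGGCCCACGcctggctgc

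The 7 genes with either form of the element had differences from -0.84 to 0.12 with a median of -0.27, and none was 2-fold lower or higher. All of the 7 except Pdia6 are chaperones or co-chaperones, so motif and role largely overlap and cannot be told apart here. The 26 measured genes of the promoter table with none of the motifs searched had a median of -0.96, and 12 of them were at least 2-fold lower and 1 higher. Outside the pathway genes described here, 11 expressed genes held the ERSE, of which 2 (18.2%) were lower and 1 higher by 2-fold. The ERSE-II was held by 7, of which 2 (28.6%) were lower and 0 higher. Among all expressed genes 12.7% were lower and 9.92% higher by 2-fold or more. A match is a description of letters in this window and not of binding, and a missing match says nothing about a factor.

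The KDEL receptors, which return chaperones ending in a KDEL-like signal from the Golgi, were unequal. Kdelr3 had a log2 value of 11.03 in B-Gal negative and 6.43 in B-Gal positive cells, 24.3-fold lower and the largest difference of the 44 genes. Kdelr1 had values of 9.82 and 8.88, 1.93-fold lower. The difference of Kdelr3 minus that of Kdelr1 was -3.66 on the log2 scale.

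Receptors that collect cargo at exit sites were lower in 5 of 6 cases, 3 of them by at least 2-fold (median -1.13). Lman1, a mannose-binding cargo receptor known for carrying coagulation factors, had values of 11.49 in B-Gal negative and 9.53 in B-Gal positive cells (3.89-fold lower). Mia3, which encodes TANGO1, a protein that loads bulky collagen into COPII carriers, had values of 9.71 and 8.43 (2.44-fold lower).

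The p24 proteins, small cargo receptors that cycle between the endoplasmic reticulum and the Golgi, spread widely. Tmed3 had values of 9.76 and 7.78, 3.95-fold lower, and Tmed9 of 9.32 and 8.35, 1.96-fold lower. Tmed2, with values of 11.73 and 10.84, was 1.85-fold lower, and its other probe sets had values of 11.28 and 10.40, and of 11.04 and 10.04. Tmed10 was level, at 10.68 in B-Gal negative and 10.76 in B-Gal positive cells, and a second probe set differed by 0.05.

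COPII genes were lower by at least 2-fold in 5 of 6 cases, beside 12.7% of all expressed genes, with a median difference of -1.71. This was the highest share of the 9 roles, but it depends on which genes were chosen, with earlier results known. The related genes Sec23b, Sec24b, Sec24c and Sar1b, given below, are in the wider list and not among the 6. Sec23a, of the inner coat, had values of 10.62 in B-Gal negative and 8.29 in B-Gal positive cells, 5.04-fold lower. Sec24d, a cargo-selecting adaptor of the inner coat, had values of 10.95 and 8.86, 4.25-fold lower. Sec31a, of the outer coat, had values of 11.23 and 9.19, 4.10-fold lower, and its partner Sec13 had values of 9.72 and 8.35, 2.60-fold lower. Sar1a, the GTPase that starts the coat, had values of 11.63 and 10.37 (2.40-fold lower).

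The exception was Sec24a, another cargo adaptor, with values of 8.85 in both arrays and a difference of 0.01. Its sign changed with the scaling, to -0.06 under quantile normalization and -0.07 after a loess correction. The related genes Sec24b and Sec24c differed by 0.18 and 0.05, so Sec24d was the only one of 4 SEC24 genes that was 2-fold lower. Likewise Sec23b differed by -0.21 against -2.33 for Sec23a, and Sar1b by 0.26 against -1.26 for Sar1a. Sec31b lay under the floor in both arrays.

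Both COPI genes of the 44 were lower in value by less than 2-fold. Copa had values of 11.83 in B-Gal negative and 11.23 in B-Gal positive cells (1.52-fold lower), and Copb1 of 11.24 and 10.55 (1.61-fold lower). The 7 other COPI genes, of the wider list, ranged from -3.10 for Copz2 to 0.74 for Copg2, with Copb2 at -1.09.

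**Figure D3:**
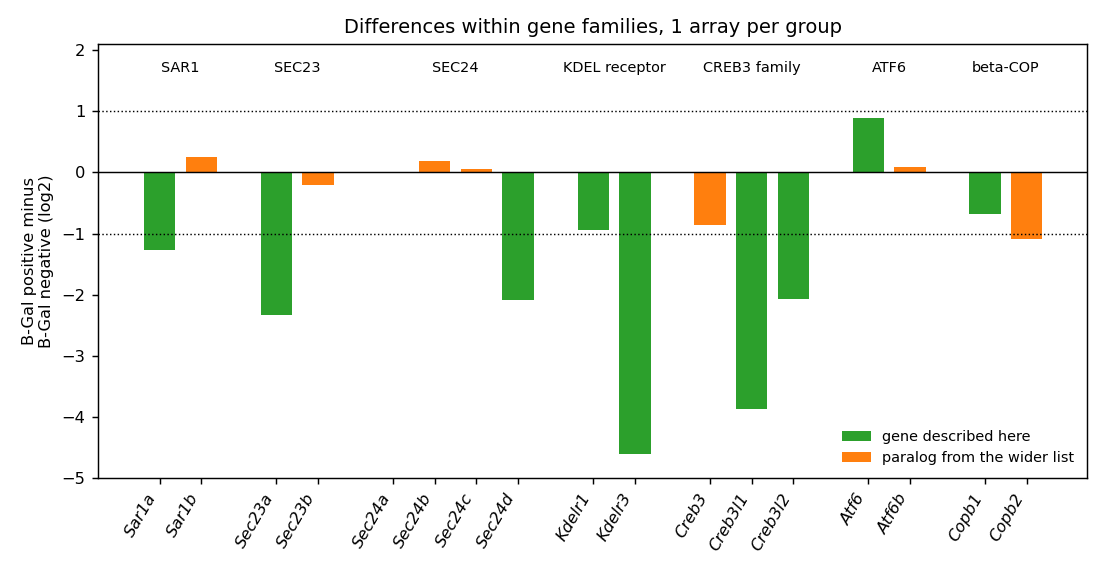
Log2 difference, B-Gal positive minus B-Gal negative, of genes described here (green) and of related genes from the wider pathway list (orange), by family, with dotted lines at 2-fold and 1 array a group. Sar1a, Sec23a, Sec24d, Kdelr3, Creb3l1, Creb3l2 and, from the wider list, Copb2 lie below the lower line. Sar1b, Sec23b, Sec24a, Sec24b, Sec24c and Atf6b lie near 0.

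The regulators of the pathway went in opposite directions. Creb3l1, which encodes OASIS, a membrane-held transcription factor known for driving collagen genes, had values of 10.39 in B-Gal negative and 6.52 in B-Gal positive cells, 14.6-fold lower. Creb3l2, its close relative known for inducing Sec23a in cartilage, had values of 8.78 and 6.71, 4.21-fold lower. Creb3, of the same family, was 1.82-fold lower.

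Of the sensors of misfolded protein, Ern1 and Atf6 were higher in value on the B-Gal positive array, while Eif2ak3, which encodes PERK and is in the wider list, was 1.74-fold lower. Ern1, which encodes IRE1 alpha, the kinase and RNase that splices Xbp1 mRNA, had values of 7.85 in B-Gal negative and 8.93 in B-Gal positive cells, 2.12-fold higher, the only gene of the 44 past 2-fold on this side. After adding an offset of 32 to the linear values its difference was 0.99, short of 2-fold. Atf6, a sensor that is cut in the Golgi to become a transcription factor, had values of 9.10 and 9.99, 1.86-fold higher, and its relative Atf6b differed by 0.09. Xbp1, the transcription factor made after IRE1 splicing, had values of 10.19 and 9.59, 1.52-fold lower. The probe set is read here as total Xbp1 mRNA, and its splicing was not measured.

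CREB3-family factors and XBP1 are known to act through elements with the core TGACGTGG, called the UPRE core here. It was found on either strand in 4 of the 37 genes of the promoter table, Kdelr3, Sec24d, Sec23a and Copb1. Among all genes of that table the share was 0.714%. None of the matches in these 4 genes overlapped an ERSE match. The 4 genes include the largest difference and the 2 inner-coat genes that were 4-fold lower. The stretches around the matches of all 4 genes are shown. They lie at chr15:79516358-79516405 (plus strand), chr3:123267450-123267495 (plus strand), chr12:59011995-59012020 (minus strand) and chr7:114254681-114254728 (minus strand), with the core in capitals, read along the gene's strand. In Kdelr3 and Copb1 the core lies on the opposite strand and so reads as its reverse complement, and that of Sec23a lies after the gene start.
Kdelr3: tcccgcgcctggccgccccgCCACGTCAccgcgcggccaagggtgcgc
Sec24d: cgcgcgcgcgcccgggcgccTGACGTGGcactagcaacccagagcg
Sec23a: cctccccttTGACGTGGcagaggcgg
Copb1: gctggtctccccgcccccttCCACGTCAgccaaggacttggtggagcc

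Of these 4 genes, 3 were at least 2-fold lower in B-Gal positive cells, by -4.60, -2.33 and -2.09, and Copb1 differed by -0.69. Beside them, 12 of the 26 measured genes with none of the motifs and 19 (43.2%) of all 44 were at least 2-fold lower. Of 116 other expressed genes that hold the core, 22 (19.0%) were lower by 2-fold or more and 5 higher. Their median difference was -0.13, and 12.7% of all expressed genes were lower by as much. Whether any factor acts through these matches was not tested. Creb3l1, Atf6, Sec61a1, Spcs3, Tmed2, Ssr2 and Lman1 were not among the promoters searched.

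**Figure D4:**
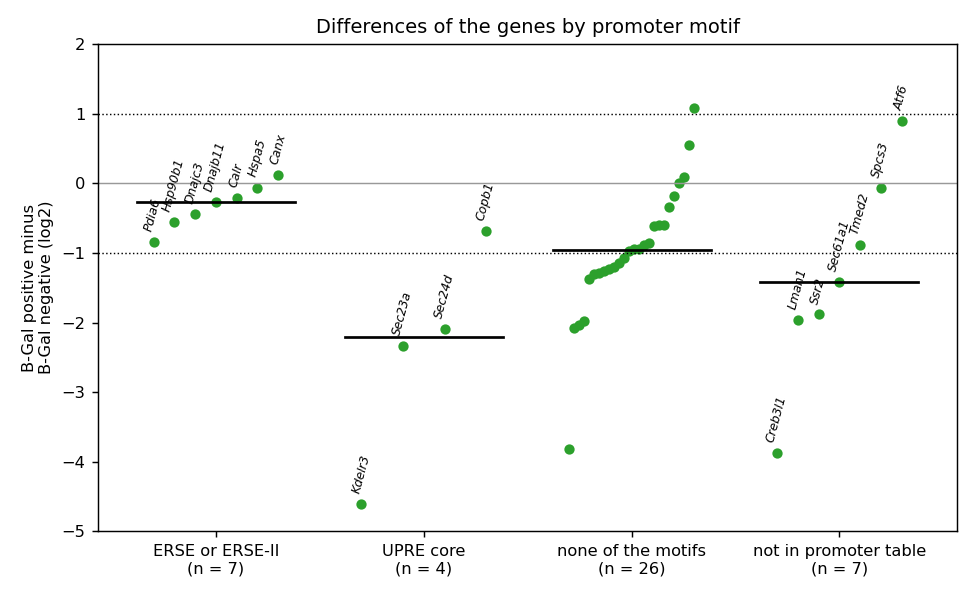
Log2 difference, B-Gal positive minus B-Gal negative, of each measured gene (points) and the median (bar) by promoter motif, with dotted lines at 2-fold. The 7 genes with an ERSE or ERSE-II lie between -0.84 and 0.12, and 3 of 4 with the UPRE core lie below -2. Of the 26 with none of the motifs, 12 are at least 2-fold lower.

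In a wider list of 107 secretory pathway genes, 104 were measured and 101 exceeded the floor in at least 1 array. Of these 101, 17 (16.8%) were lower by 2-fold or more and 3 (2.97%) higher, around a median difference of -0.47. The share lower by 2-fold or more was near the 12.7% of all expressed genes. A lower value was found in 71 (70.3%) and a higher one in 30, beside 45.5% with a lower value among all expressed genes. The 20 genes of degradation and stress response were split evenly, 10 lower and 10 higher in value, with a median of -0.03 and 1 past 2-fold, Creb3l3, a relative of Creb3l1 (3.30-fold lower). Edem1, which marks misfolded glycoproteins for degradation, had values of 9.32 and 10.29, 1.97-fold higher. Selenos, of the same list, had values of 8.26 and 7.35, 1.88-fold lower.

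On deposited values 5 genes of the wider list were at least 4-fold lower, and 4 were when low values were set to the floor, an alternative chosen after seeing the data. Fkbp14, a prolyl isomerase of the endoplasmic reticulum that acts on collagen, had values of 10.64 in B-Gal negative and 6.44 in B-Gal positive cells (18.4-fold lower). Copz2, a COPI subunit, had values of 11.27 and 8.17 (8.58-fold lower), and Sec16b, of exit sites, 8.90 and 6.06 (7.15-fold lower). Txndc5, a disulfide isomerase of the endoplasmic reticulum, was 5.06-fold lower, and Uggt2, a relative of the glycoprotein folding sensor Uggt1, was at least 3.02-fold lower against the floor.

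Other translocation, signal recognition and glycosylation genes were at least 2-fold lower in 5 of 21 cases (23.8%) and higher in 1. Among all expressed genes 12.7% were lower and 9.92% higher by as much. The oligosaccharyltransferase subunits Ostc and Krtcap2 were 3.45-fold and 2.87-fold lower. Sec11c, a catalytic subunit of signal peptidase, had values of 7.71 and 8.94, 2.36-fold higher. Copg1, of the COPI coat, was 2.95-fold lower, within a transport list in which 7 of 35 genes were lower and 1 higher. The other folding and oxidation list had 4 of 25 (16.0%) lower and 1 higher, near the share lower among all expressed genes. The remaining higher genes, named after their values were seen, were Ero1b, which reoxidises disulfide isomerases (6.64 and 8.38, 3.33-fold), and the p24 gene Tmed5 (7.30 and 8.33, 2.05-fold).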

How the data were processed

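Biotin-labelled total RNA of each group was measured on 1 Affymetrix Mouse Gene ST array, per the labels. The deposited values are 1 per probe set and array and were used as log2 values, a scale inferred from their range of 1.16 to 14.8. The software was Partek, per the submitters' processing notes. How the authors summarized and normalized the deposited values, and the log base, is not stated in the sources used here. Array medians were 6.18 (B-Gal negative) and 6.16 (B-Gal positive), and no scaling was added.

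Of 28853 probe sets, 21789 named 1 gene in the platform annotation used here, 1621 several and 5443 were not listed. Members and lists were chosen with earlier results of these data known. Differences, counts past 2-fold and medians were computed in Python 3.11.15 with pandas 2.3.3, and the counting was tested on simulated data. The number of arrays limits the precision, and no p-value was computed. All 44 measured genes could be named. From the wider list these were genes past 4-fold, the 3 with the largest differences of each of its 4 parts, and relatives of the 44. Eif2ak3, Sec11a, Copg2, Ero1b and Tmed5 were given outside this rule. Promoter letters were searched on both strands of RefSeq sequences. Protein features were planned and not analysed here.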

Additional observations from a re-analysis of the deposited data

How the results depend on the processing

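Alternatives were centring, quantile normalization, a loess correction (span 0.4), an offset of 32, other filters, the mean over probe sets, thresholds of 1.5-fold and 4-fold, and raising low values to the floor. Apart from the fold thresholds, between 18 and 22 secretory pathway genes were at least 2-fold lower, and their median ran from -0.96 to -0.87. Kdelr1 and Tmed9 passed 2-fold under quantile normalization and loess, and Sec61b under loess and the mean over probe sets. With the offset, Ern1 no longer passed 2-fold, which left 0 higher genes. Loess moved the median of expressed genes from 0.06 to -0.0401. With a mean log2 value of at least 8 required, 523 expressed genes were lower and 817 higher, against 1753 and 1368, and 1 gene of the wider list was higher. At 1.5-fold, 30 secretory pathway genes were lower and 2 higher, 46 and 5 of the wider list, and 2765 and 2585 of the expressed genes. At 4-fold these counts were 7 and 0, 5 and 0, and 788 and 415. At 4-fold, settings added after seeing the data left 5 of the 7 with the offset, and 4 of the 5 with low values raised to the floor. The offset also moved Kdelr3 to -4.17 and Creb3l1 to -3.47. The cause of the changes with the offset and loess was not tested. Among the 44 genes, no difference of at least 2-fold changed sign under the 6 alternatives run for single genes. No paired analysis was possible because each group has 1 array, which also leaves no replicate to leave out.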
